A study of Mus musculus with 34 samples.

Results

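Bone marrow-derived macrophages of mice with Dnmt3a deleted in the blood lineage, given low-density lipoprotein (LDL), were compared with WT macrophages given the same LDL. The members are 6 of the 34 RNA sequencing libraries of the series, 3 labelled Dnmt3aKO LDL and 3 labelled WT LDL, and they were taken by genotype and treatment labels alone. Dnmt3aKO stands for Dnmt3afl/fl;Vav-Cre, floxed Dnmt3a alleles with a Cre recombinase driven by the Vav promoter, which is active in blood-forming cells, and WT for Vav-Cre alone, so that both groups carried the recombinase. Marrow from mice aged 10 to 14 weeks had been grown for 6 days in 10 ng/ml M-CSF, the growth factor that turns marrow progenitors into macrophages, replated and rested for 24 h, and then exposed for 24 h to LDL at 200 mg/dL. The reference groups used below were Dnmt3aKO and WT given vehicle (control), with 3 libraries each, and 2 further mutant genotypes given LDL, also with 3 libraries each. These were Tet2KO, with floxed Tet2 (Tet2fl/fl;Vav-Cre), and Jak2VF, with 1 Jak2 allele that turns to an active kinase on recombination (Jak2V617F/WT;Vav-Cre). The sources used here do not state whether the LDL was native or modified, which exons were floxed, the sex of the mice, or whether libraries came from separate animals. The p-values thus rest on a spread between libraries that may be technical. It was estimated over all 24 libraries fitted, in 8 groups, and not from the 6 LDL libraries alone.

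DNMT3A adds methyl groups to cytosines that precede a guanine and so writes new DNA methylation, a mark that at promoters often goes with a silent gene. Loss-of-function mutations of the gene in blood stem cells are among the most common lesions of clonal hematopoiesis, in which macrophages descended from a mutant clone reach the arterial wall. Macrophages there take up lipoprotein through the LDL receptor and scavenger receptors, free its cholesterol in the lysosome, store it as ester or pass it on, and release cytokines, proteases and complement proteins.

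Levels are given as CPM, counts relative to TMM-scaled library totals, and may be compared between libraries for 1 gene but not between genes of different length. Each difference, and each amount by which a gene is said to have risen or fallen, is a log2 fold change with its standard error (SE). The test was the edgeR quasi-likelihood test with Benjamini-Hochberg adjustment over all 19444 genes tested, and a gene was called where its adjusted p lay under 0.05. The 6 LDL libraries held 24543643 to 39295409 counts. Principal components were taken on the log2 levels of the genes that varied most over these 6 libraries. The first carried 54.2% of the variance of those genes and separated the genotypes. The 3 Dnmt3aKO libraries lay at 23.3 to 30.6 and the 3 WT libraries at -35.5 to -13.1. WT LDL libraries differed more among themselves than Dnmt3aKO LDL libraries did, with a chi-square per degree of freedom of 35.3 to 104 between WT pairs and 7.92 to 12.3 between Dnmt3aKO pairs. WT LDL replicate 1 stood apart. In it the level of 23 genes was more than 1.5 log2 units above all 5 other LDL libraries (against 0 to 3 genes for each of the others), among them interferon-stimulated genes such as Irf7 at 158 CPM, with at most 35.9 CPM in the others, and Isg15 at 66.1 CPM, with at most 16.3 CPM. WT LDL replicate 3 held 2.72 CPM of Gfap, an intermediate filament of astrocytes, where the other 5 LDL libraries held 0.111 to 0.391 CPM. Irf7, Isg15 and Gfap were picked after their values were seen. All 37 genes of the mitochondrial genome are listed at 0 in each library, so no mitochondrial share could be read.

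Gene length also moved with the comparison. Genes above a minimum mean level and with a known exon length were split by that length into 5 classes of 2061 to 2063 genes. The median log2 fold change with LDL ran from -0.282 in the shortest class (median exon length 1614 bases, 68 genes called higher and 325 lower) to 0.205 in the longest class (10218 bases, 329 higher and 84 lower). With vehicle the classes stayed between -0.027 and 0.018. WT LDL replicate 1 deviated by 0.375 in the shortest and -0.304 in the longest class, and without it the range of medians was -0.126 to 0.125. A fit with a length offset for each library, chosen after this gradient was seen, brought the medians to between -0.042 and 0 and called 3712 genes, among them 82.4% of the genes called without the offset. For many genes named below whose call WT LDL replicate 1 or the offset changes, the value is given beside it.

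**Figure D1:**
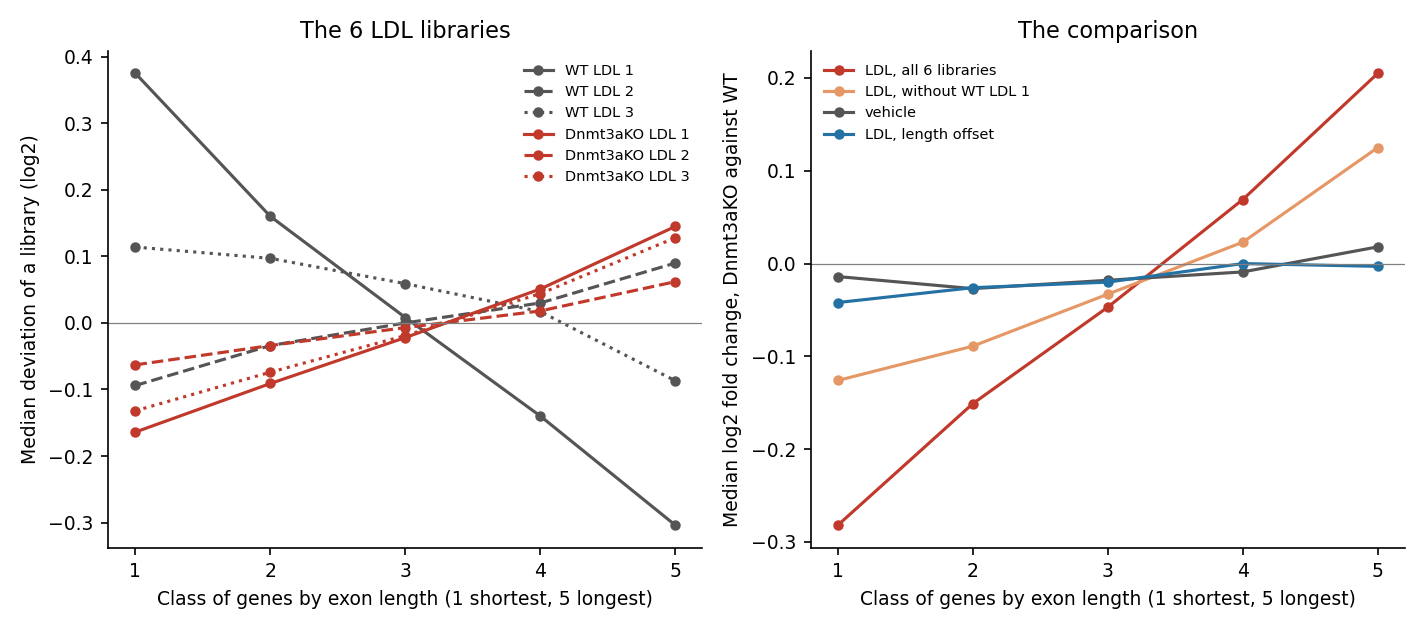
Median deviation of each LDL library from the mean of the 6, by class of exon length (left, log2 units), and median log2 fold change of Dnmt3aKO against WT by class (right) for LDL, LDL without WT LDL replicate 1, vehicle, and LDL with the length offset. WT LDL replicate 1 has the steepest line, from 0.375 to -0.304, and the LDL medians run from -0.282 to 0.205 while those with vehicle stay between -0.027 and 0.018.

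Because the methyltransferase acts on CG dinucleotides, the bases before the start of 4 genes with large changes are shown, 2 that rose (Il1a and Mcoln3) and 2 that fell (Gjb2 and Bmp4). Each sequence holds the 250 bases upstream of the annotated start (RefSeq, GRCm38.p6), 5′ to 3′ on the strand of the gene, with CG in capitals.
Il1a (chr2:129309973-129310222, minus strand): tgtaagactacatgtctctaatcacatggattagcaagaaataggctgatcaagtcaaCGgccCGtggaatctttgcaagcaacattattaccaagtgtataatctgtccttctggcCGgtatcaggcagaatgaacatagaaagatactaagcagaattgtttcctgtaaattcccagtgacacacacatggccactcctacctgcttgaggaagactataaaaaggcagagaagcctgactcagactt
Mcoln3 (chr3:146121541-146121790, plus strand): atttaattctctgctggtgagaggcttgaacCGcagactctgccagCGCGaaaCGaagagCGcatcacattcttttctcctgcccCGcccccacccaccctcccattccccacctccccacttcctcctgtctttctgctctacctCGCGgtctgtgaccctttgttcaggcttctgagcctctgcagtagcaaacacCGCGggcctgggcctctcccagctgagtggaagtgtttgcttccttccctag
Gjb2 (chr14:57104703-57104952, minus strand): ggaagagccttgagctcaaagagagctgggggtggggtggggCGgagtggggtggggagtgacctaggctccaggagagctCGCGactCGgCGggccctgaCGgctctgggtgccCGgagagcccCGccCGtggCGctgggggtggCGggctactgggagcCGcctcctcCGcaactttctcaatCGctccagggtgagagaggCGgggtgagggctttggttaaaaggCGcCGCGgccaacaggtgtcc
Bmp4 (chr14:46390670-46390919, minus strand): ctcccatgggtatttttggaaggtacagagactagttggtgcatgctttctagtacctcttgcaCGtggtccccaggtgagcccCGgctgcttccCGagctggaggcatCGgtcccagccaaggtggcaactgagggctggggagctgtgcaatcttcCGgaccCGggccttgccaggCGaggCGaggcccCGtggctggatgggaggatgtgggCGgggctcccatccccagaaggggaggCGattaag
Il1a has 3 CG in its window, Mcoln3 10, Bmp4 11 and Gjb2 18, where the median over 32851 windows of this length is 6 and 92.1% hold at least 1. Of these 4 genes Il1a thus lay below the median and the other 3 above it. Methylation was not analysed here. Of 14708 protein-coding genes tested 76.0% had a promoter entry, under the 80% that a check over gene sets needs, so none was made.

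Dnmt3a itself (ENSMUSG00000020661, chromosome 12, 3806007 to 3914443 on GRCm38) was read first. It stood at 39.4, 54.8 and 52 CPM in the WT LDL libraries and at 29.1, 27.6 and 30.4 CPM in the Dnmt3aKO LDL libraries, which did not overlap. The log2 fold change was -0.75 ± 0.15 (SE, adjusted p = 0.0016). With vehicle the levels were 54.6, 65.9 and 71.2 CPM in WT and 36.6, 32.6 and 32.7 CPM in Dnmt3aKO, a log2 fold change of -0.91 ± 0.15 (SE, adjusted p = 2.0e-04). The labels' direction was thus seen in each library, and over the whole gene 27.6 to 30.4 CPM remained. Counts over a whole gene include exons outside a floxed part and the antisense gene Dnmt3aos, whose strand was not shown to be counted apart. They therefore do not measure the share of recombined alleles.

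Among 20 genes of the DNA methylation machinery, Dnmt3a included, 2 were called higher and 4 lower, where 8.01% and 9.46% of all genes tested were. The counts were 4 and 3 with scaling by relative log expression (RLE) factors and 6 and 3 under the length offset. Beside Dnmt3a, Tdg, a glycosylase that removes oxidised methylcytosine, fell from 34.9, 39.2 and 42.7 CPM to 29.5, 28.1 and 30.1 CPM, with no overlap and a log2 fold change of -0.41 ± 0.09 (SE, adjusted p = 0.00463). Gadd45g, a stress-response gene linked to demethylation, fell by 1.03 on the log2 scale (adjusted p = 0.00597), a call lost without WT LDL replicate 1 (log2 fold change -0.77, adjusted p = 0.0545). The maintenance methyltransferase Dnmt1 had a log2 fold change of 0.00 ± 0.13 (SE, adjusted p = 0.987), which did not pass. The other de novo enzyme, Dnmt3b, did not pass either (log2 fold change -0.05 ± 0.20 SE, adjusted p = 0.871). Calls for Tet2 and Zbtb38 (higher) and Uhrf1 (lower) were each lost without any 1 of several libraries. Without WT LDL replicate 1 the adjusted p was 0.15 for Tet2 and 0.184 for Zbtb38. Under the length offset it was 0.064 for Uhrf1. The count of higher members ran from 0 to 5 as single libraries were left out (0 without Dnmt3aKO LDL replicate 1, 2 or 3 or WT LDL replicate 1, 1 without WT LDL replicate 3, 5 without WT LDL replicate 2).

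With LDL, 3397 of 19444 genes were called (17.5%), 1557 higher in Dnmt3aKO (8.01%) and 1840 lower (9.46%). The count of each gene list with LDL is to be read against these shares. Which direction held more calls depended on the scaling: 1219 were higher and 2129 lower (36.4% higher) with library totals, 1680 and 1662 with RLE factors, and 1962 and 1750 under the length offset. The median absolute log2 fold change of the called genes was 0.62, and 437 of the higher and 356 of the lower genes passed a 2-fold change. Libraries of both genotypes did not overlap for 6614 genes (34%), and for 3277 (16.9%) this held together with the call. The count rested on which libraries were fitted. It was 1838 without Dnmt3aKO LDL replicate 3, 2150 without Dnmt3aKO LDL replicate 2, 1966 without WT LDL replicate 1, 2032 without WT LDL replicate 3 and 5658 without WT LDL replicate 2.

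With vehicle, the same genotypes differed at 2157 genes (11.1%), 1085 higher (5.58%) and 1072 lower (5.51%). The vehicle comparison shares no library with the LDL comparison. Of all genes, 1225 were called in the same direction under both treatments, 622 higher and 603 lower, which is 36.1% of the LDL calls and 56.8% of the vehicle calls. Of the 793 LDL calls past a 2-fold change, 57.4% were also called with vehicle in the same direction. A set of 10 genes was called in opposite directions, and it included Nlrp3, the sensor of an inflammasome, and Ccl6, a CC chemokine. Nlrp3 stood at 27.6, 30.8 and 33 CPM in WT and 48.8, 47.9 and 50.6 CPM in Dnmt3aKO with LDL, and at 37.4, 41.6 and 42.8 CPM in WT and 33.6, 27.8 and 32.1 CPM in Dnmt3aKO with vehicle. Dnmt3aKO was thus the higher genotype with LDL and the lower with vehicle, with log2 fold changes of 0.69 ± 0.11 (SE, adjusted p = 1.2e-04) and -0.38 ± 0.11 (SE, adjusted p = 0.0209). Ccl6 went the other way, with 565, 439 and 531 CPM in WT and 286, 297 and 289 CPM in Dnmt3aKO under LDL, against 339, 296 and 278 CPM in WT and 396, 411 and 379 CPM in Dnmt3aKO under vehicle.

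**Figure D2:**
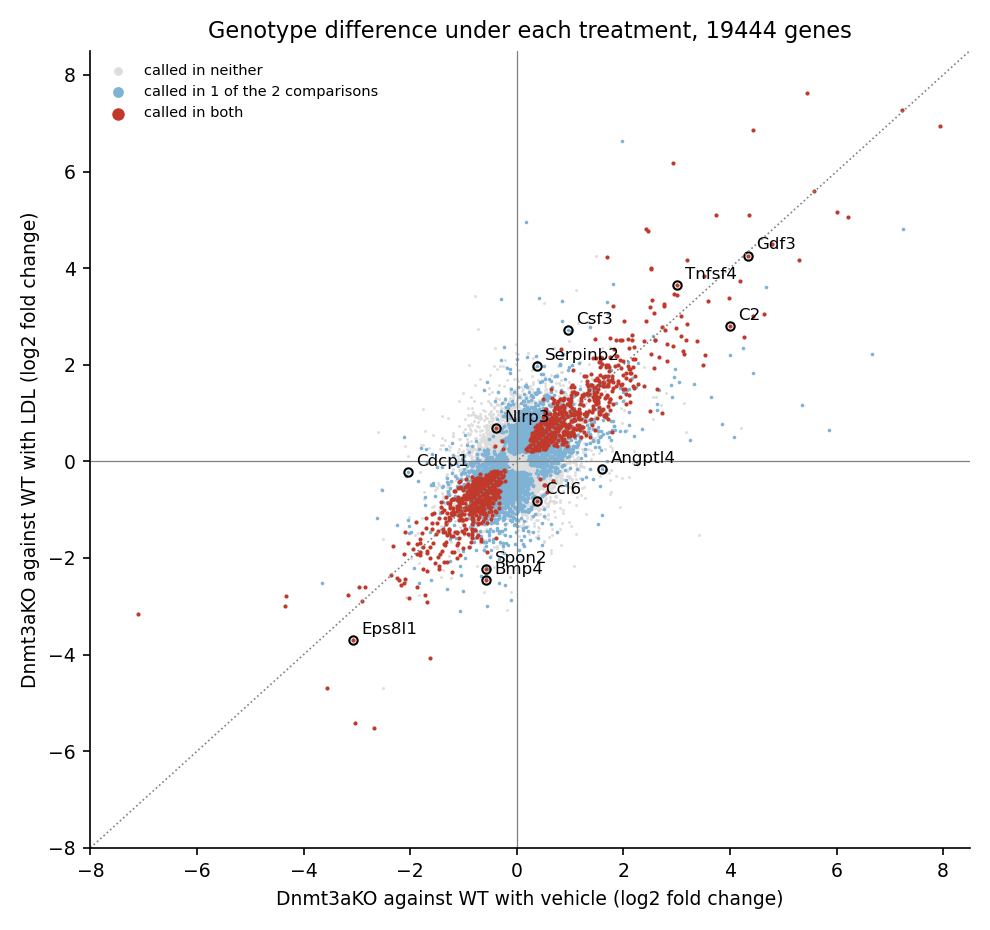
Log2 fold change of Dnmt3aKO against WT with vehicle (x axis) and with LDL (y axis) for the 19444 genes tested, with genes called under neither treatment in grey, under 1 in blue and under both in red, and the line of equality dotted. Gdf3 and C2 lie far up and to the right, Eps8l1 far down and to the left, and Bmp4, Spon2 and Serpinb2 lie off the line of equality, with a larger difference under LDL.

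Tnfsf4, C2, Il1a and Csf3, the 4 genes given with this comparison as its markers, were all higher in Dnmt3aKO with LDL. Tnfsf4 (ENSMUSG00000026700, chromosome 1, 161395409 to 161418410 on GRCm38) encodes OX40 ligand, which co-stimulates T cells. Its level was 0.64, 0.441 and 0.721 CPM in the WT LDL libraries and 6.06, 7.89 and 8.66 CPM in the Dnmt3aKO LDL libraries. The lowest Dnmt3aKO library lay well above the highest WT library, and the log2 fold change was 3.66 ± 0.21 (SE, adjusted p = 1.4e-10). With vehicle the levels were 0.273, 0.198 and 0.184 CPM in WT and 1.79, 1.61 and 1.92 CPM in Dnmt3aKO, a log2 fold change of 3.00 ± 0.25 (SE, adjusted p = 4.9e-08), so the genotypes differed under both treatments and the levels of both were higher with LDL. Tet2KO held 0.666, 0.726 and 0.646 CPM and Jak2VF 0.546, 0.495 and 0.522 CPM with LDL, next to the WT range.

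C2 (ENSMUSG00000024371, chromosome 17, 34862604 to 34898265 on GRCm38) encodes the protease component of the classical and lectin complement convertase. It was at 0.473, 0.661 and 0.295 CPM in WT and 2.93, 3.78 and 3.44 CPM in Dnmt3aKO with LDL, groups that did not overlap, with a log2 fold change of 2.80 ± 0.21 (SE, adjusted p = 6.5e-09). Under vehicle the Dnmt3aKO libraries were higher still, at 5.3, 5.61 and 5.39 CPM against 0.328, 0.283 and 0.393 CPM in WT, a log2 fold change of 4.0 ± 0.21 (SE, adjusted p = 3.6e-11). The difference between both log2 fold changes, -1.20 ± 0.31 (SE, adjusted p = 0.0836), did not pass the test. The annotated C2 locus overlaps Zbtb12 (log2 fold change -0.36) and Gm20547, and counts of overlapping genes may be shared.

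Il1a (ENSMUSG00000027399, chromosome 2, 129299610 to 129309972 on GRCm38) encodes interleukin 1 alpha, a cytokine that acts on the interleukin 1 receptor. With LDL it measured 1.84, 1.87 and 2.03 CPM in WT and 9.32, 9.02 and 11.3 CPM in Dnmt3aKO. Each Dnmt3aKO library was above each WT library, with a log2 fold change of 2.37 ± 0.20 (SE, adjusted p = 5.2e-08), and with vehicle the difference was 2.19 ± 0.31 (SE, adjusted p = 4.3e-05) at levels of 0.273, 0.0848 and 0.184 CPM in WT and 0.629, 0.995 and 0.907 CPM in Dnmt3aKO. The gene overlaps Gm14023, which had a log2 fold change of 0.74.

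Csf3 (ENSMUSG00000038067, chromosome 11, 98701263 to 98703629 on GRCm38) encodes G-CSF, the growth factor of granulocytes. The levels were 1.67, 0.799 and 1.08 CPM in WT and 8.11, 7.3 and 7.94 CPM in Dnmt3aKO with LDL, with no overlap and a log2 fold change of 2.71 ± 0.25 (SE, adjusted p = 1.7e-07). With vehicle all 6 libraries held under 1 CPM (0.328, 0.283 and 0.184 in WT, 0.581, 0.51 and 0.454 in Dnmt3aKO), and the difference of 0.96 ± 0.37 (SE, adjusted p = 0.107) did not pass the test. Nor did the difference between the treatments, 1.75 ± 0.46 (SE, adjusted p = 0.095). Tet2KO LDL libraries, at 2.84, 2.18 and 2.21 CPM, lay above WT LDL (log2 fold change 1.02 ± 0.26 SE, adjusted p = 0.032) and below Dnmt3aKO LDL. For scale, 2.76% of genes were called for Tet2KO against WT with LDL (1.28% higher and 1.48% lower), and 9.97% for Jak2VF against WT (4.21% higher and 5.75% lower).

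**Figure D3:**
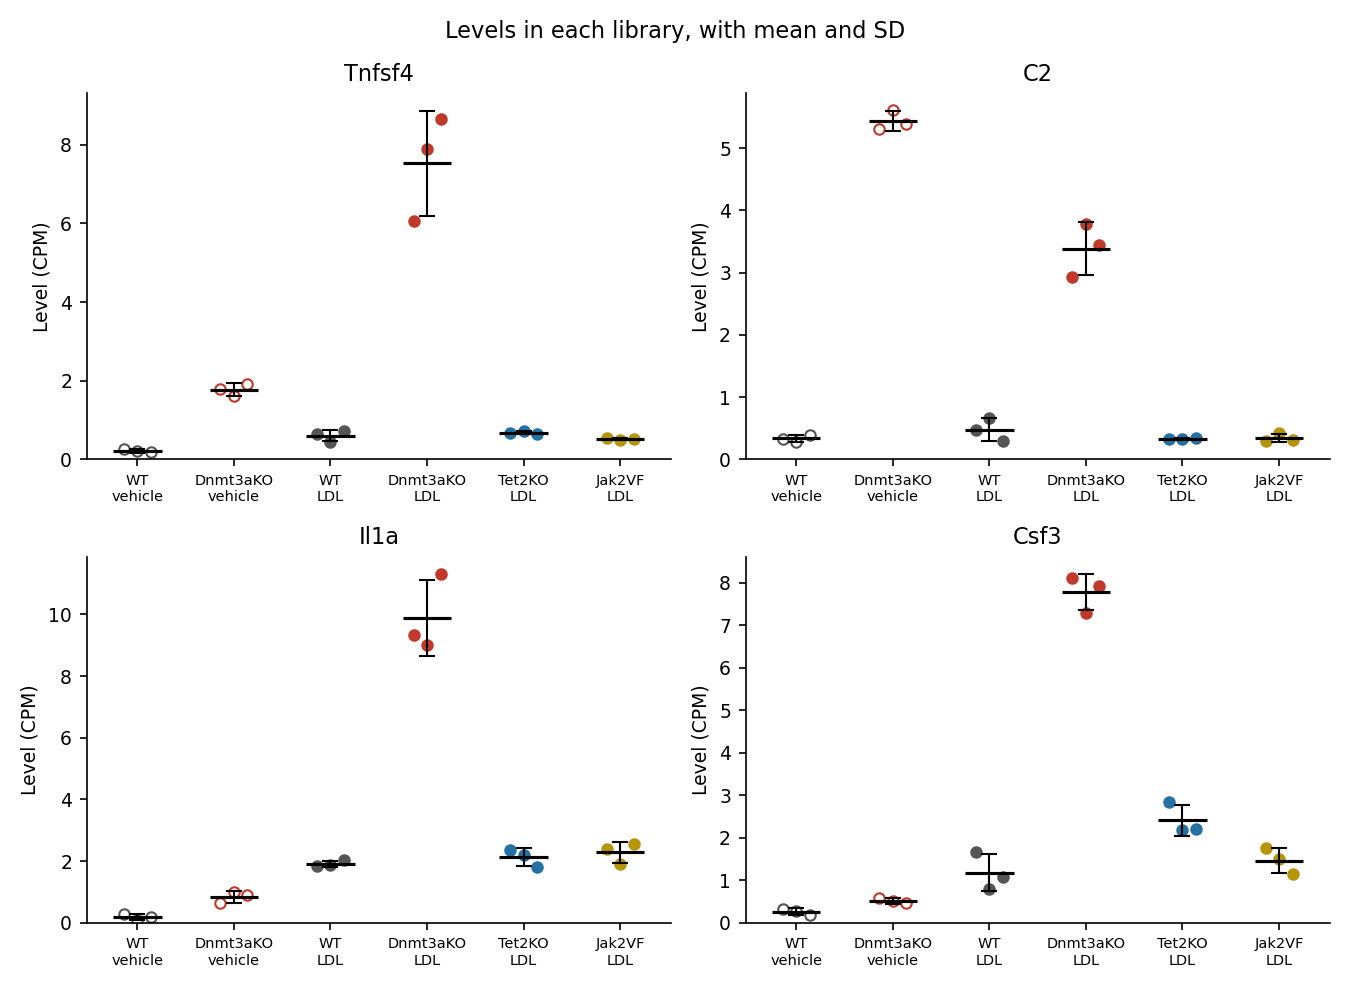
Level (CPM) of Tnfsf4, C2, Il1a and Csf3 in each library of WT and Dnmt3aKO with vehicle (open points) and of WT, Dnmt3aKO, Tet2KO and Jak2VF with LDL (filled points), with the mean and SD of each group of 3. For each gene the 3 Dnmt3aKO LDL points lie above all WT, Tet2KO and Jak2VF LDL points, and for C2 the Dnmt3aKO vehicle points lie higher still.

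Most inflammatory cytokines and other NF-kB targets were higher. Of 28 members tested 18 were called higher and 2 lower (1 lower without any 1 Dnmt3aKO LDL replicate or WT LDL replicate 1), with a median log2 fold change of 0.94 against -0.03 over all genes. With vehicle 14 were called higher and 2 lower. Leaving out single libraries gave 16 to 18 higher. Serpinb2, a plasminogen activator inhibitor, stood at 40, 54.8 and 43.7 CPM in WT and 158, 182 and 202 CPM in Dnmt3aKO with LDL, a log2 fold change of 1.97 ± 0.16 (SE, adjusted p = 1.8e-08). Its overlapping neighbour Serpinb10 rose too, by 1.43. Irak3, a brake on Toll-like receptor signalling, rose from 39.5, 34.6 and 38.2 to 83.8, 81.7 and 76.5 CPM, a log2 fold change of 1.11 ± 0.10 (SE, adjusted p = 8.8e-08). The cytokine Il6, picked after its values were seen, was at 36.6, 35.2 and 36.7 CPM in WT and 73, 78.8 and 85.4 CPM in Dnmt3aKO (log2 fold change 1.13 ± 0.18 SE, adjusted p = 2.0e-04). Nos2, the inducible nitric oxide synthase, picked likewise, was at 116, 127 and 146 CPM in WT and 286, 298 and 305 CPM in Dnmt3aKO (log2 fold change 1.19 ± 0.16 SE, adjusted p = 2.6e-05). The genotypes did not overlap for any of these 4 genes. Tnf, the best known member, held 10.6 to 13.8 CPM in WT and 12.5 to 15.1 CPM in Dnmt3aKO and did not pass the test (log2 fold change 0.16 ± 0.17 SE, adjusted p = 0.532).

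NF-kB is held inactive by inhibitor proteins that it induces in turn. Of 20 genes for its subunits and feedback inhibitors, 11 were called higher and 0 lower with LDL, and 8 and 0 with vehicle. Feedback genes had the smallest adjusted p-values. Nfkbia, which holds NF-kB in the cytoplasm, was at 116, 124 and 127 CPM in WT and 197, 207 and 192 CPM in Dnmt3aKO, a log2 fold change of 0.70 ± 0.10 (SE, adjusted p = 6.0e-05). Tnfaip3, a ubiquitin-editing brake, rose by 0.82, Nfkbiz, a nuclear co-factor, by 0.67, and Zc3h12a, a nuclease that degrades cytokine transcripts, by 0.79 on the log2 scale, each with no overlap between the genotypes. Of the subunits themselves, Rela had a log2 fold change of -0.08 and did not pass, and Rel was called (log2 fold change 0.60 ± 0.18 SE, adjusted p = 0.029) but lost the call without Dnmt3aKO LDL replicate 1 or 3 or WT LDL replicate 1 or 3 (adjusted p = 0.0683, 0.0928, 0.129 and 0.133).

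The interleukin 1 family moved in both directions. Il1b, the secreted ligand processed by caspase 1, was at 408, 209 and 237 CPM in WT and 607, 781 and 738 CPM in Dnmt3aKO, a log2 fold change of 1.32 ± 0.28 (SE, adjusted p = 0.00266). Tet2KO LDL libraries held 822, 574 and 568 CPM of it, and the direct difference of Dnmt3aKO from them did not pass (log2 fold change 0.11 ± 0.28 SE, adjusted p = 0.845). Il1f9, an epithelial and myeloid member of the family, rose by 1.66 ± 0.20 (SE, adjusted p = 6.1e-06). Il33, an alarmin, was lower, with 2.84, 3.72 and 3.08 CPM in WT and 1.05, 0.698 and 0.838 CPM in Dnmt3aKO and a log2 fold change of -1.92 ± 0.18 (SE, adjusted p = 1.9e-07), and it was lower with vehicle as well (log2 fold change -2.12 ± 0.14 SE, adjusted p = 3.1e-09). In all, 4 of 17 members were called higher and 3 lower (1 lower without WT LDL replicate 1).

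In the TNF superfamily 7 of 28 members were called higher and 4 lower (2 lower without WT LDL replicate 1), with a median of 0.02. Among all genes tested 8.01% were called higher and 9.46% lower. The largest rise after Tnfsf4 was that of Tnfrsf9, the co-stimulatory receptor 4-1BB, at 15.5, 12.3 and 14.7 CPM in WT and 41.8, 59.9 and 65.6 CPM in Dnmt3aKO (log2 fold change 1.98 ± 0.18 SE, adjusted p = 1.1e-07). The receptors Tnfrsf1b and Tnfrsf21 rose by 0.74 and 0.81 on the log2 scale. Tnfsf14, the ligand LIGHT, picked after its value was seen, fell from 11, 8.52 and 7.84 to 4.47, 4.34 and 4.25 CPM (log2 fold change -1.07 ± 0.15 SE, adjusted p = 2.6e-05).

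Chemokines and their receptors moved in both directions. Of 16 genes of CXC chemokines and receptors, 7 were called higher and 5 lower. Cxcl1, which attracts neutrophils, rose from 90, 98.5 and 112 to 236, 243 and 235 CPM (log2 fold change 1.25 ± 0.16 SE, adjusted p = 1.8e-05). Its relatives Cxcl2 and Cxcl3, picked after their values were seen, rose by 0.97 and 1.11. Cxcr2, their receptor, stood at 2.7, 3.53 and 2.92 CPM in WT and 13.2, 14 and 11.2 CPM in Dnmt3aKO (log2 fold change 2.07 ± 0.18 SE, adjusted p = 5.2e-08). Cxcr3, the receptor of interferon-induced chemokines, fell from 4.59, 4.49 and 4.59 to 0.92, 1.13 and 1.15 CPM (log2 fold change -2.08 ± 0.16 SE, adjusted p = 1.8e-08). Ppbp, a platelet chemokine, was at 205, 203 and 223 CPM in WT and 54.6, 55.6 and 61.6 CPM in Dnmt3aKO (log2 fold change -1.88 ± 0.13 SE, adjusted p = 4.5e-09). For each of these genes the genotypes did not overlap. Of 19 genes of CC chemokines and receptors, 5 were called higher, such as Ccl22, a ligand of Ccr4 (log2 fold change 1.99 ± 0.25 SE, adjusted p = 7.9e-06), and 4 lower. The shares over all genes tested were 8.01% higher and 9.46% lower.

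Other sensors and growth factor genes showed smaller differences. Of 18 inflammasome genes 7 were called higher and 2 lower (1 lower without Dnmt3aKO LDL replicate 3 or WT LDL replicate 2). Beside Nlrp3 these were led by Naip2, a sensor of bacterial proteins that shares sequence with other Naip genes (log2 fold change 0.82 ± 0.10 SE, adjusted p = 9.0e-06), Panx1, a channel for ATP (log2 fold change 0.88 ± 0.14 SE, adjusted p = 1.4e-04), and Mefv, the gene of pyrin (log2 fold change 0.58 ± 0.09 SE, adjusted p = 1.8e-04). The caspase and gasdermin genes Casp1 and Gsdmd had log2 fold changes of -0.02 and -0.13 and did not pass. Among 21 Toll-like receptor genes and adaptors 6 were called higher and 1 lower (11 and 2 without WT LDL replicate 2). Tlr2, a receptor of bacterial lipoproteins, rose by 0.63 ± 0.10 (SE, adjusted p = 2.2e-04), while its partner Tlr1 fell by 0.57 (adjusted p = 1.3e-04). In the colony stimulating factor list 4 of 13 members were called higher, among them Csf3r, the receptor of G-CSF (log2 fold change 0.71 ± 0.10 SE, adjusted p = 6.2e-05), and Kitl, the ligand of Kit (log2 fold change 0.82 ± 0.18 SE, adjusted p = 0.00315). Kit itself was called lower (log2 fold change -0.80 ± 0.20 SE, adjusted p = 0.00843), a call lost without Dnmt3aKO LDL replicate 3 or WT LDL replicate 3 (adjusted p = 0.0752 and 0.0625). Of 20 co-stimulation genes 5 were called higher and 3 lower (0 lower without Dnmt3aKO LDL replicate 3, 1 without WT LDL replicate 3). Cd274, which encodes PD-L1, was at 60.8, 76.3 and 71.3 CPM in WT and 127, 145 and 150 CPM in Dnmt3aKO (log2 fold change 1.02 ± 0.13 SE, adjusted p = 1.9e-05).

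**Figure D4:**
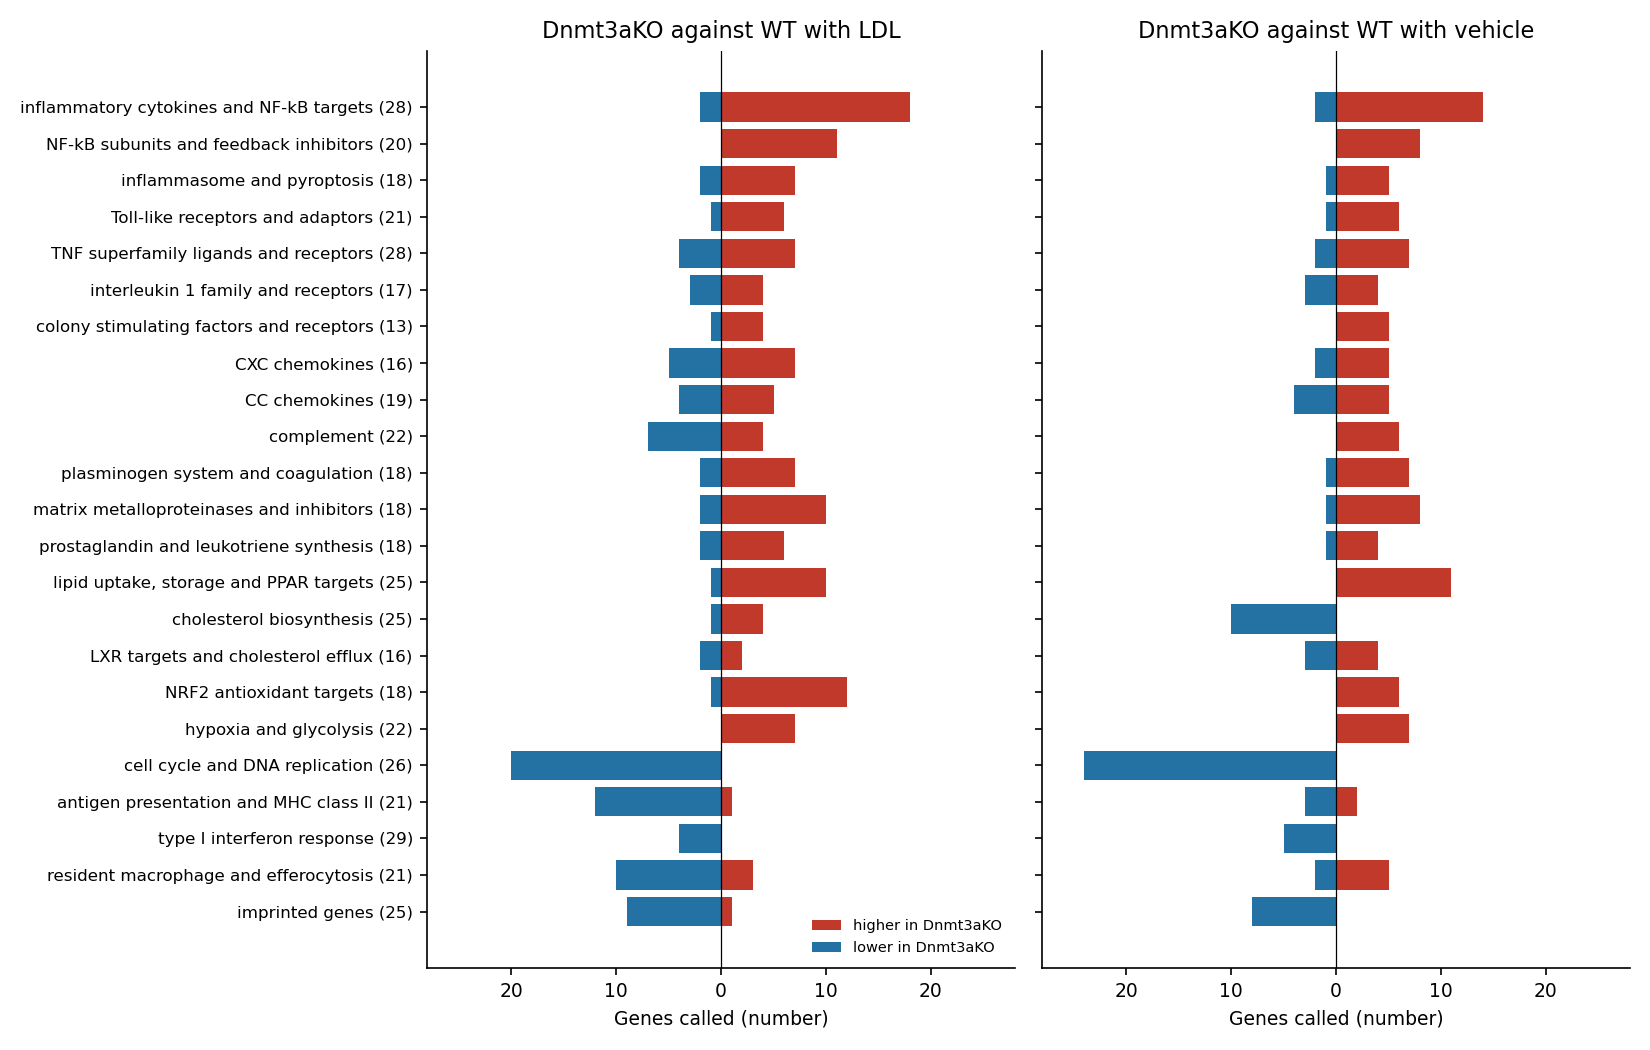
Number of members called higher (red) and lower (blue) in Dnmt3aKO against WT for 23 gene lists, with LDL (left) and with vehicle (right), and the number tested in brackets. Inflammatory and NF-kB targets (18 higher and 2 lower of 28 with LDL) and cell cycle genes (0 higher and 20 lower of 26) differ in direction, and the same holds with vehicle (14 higher and 2 lower against 0 and 24).

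Most metalloproteinase genes that changed were higher. Of 18 metalloproteinases and inhibitors, 10 were called higher and 2 lower (1 lower without Dnmt3aKO LDL replicate 1 or 2 or WT LDL replicate 1 or 3), with a median of 0.40, and with vehicle 8 were higher and 1 lower. Mmp13, a collagenase, was at 133, 153 and 154 CPM in WT and 350, 467 and 588 CPM in Dnmt3aKO (log2 fold change 1.68 ± 0.18 SE, adjusted p = 1.2e-06). Mmp8, another collagenase found in granulocyte granules, rose from 166, 173 and 172 to 382, 435 and 438 CPM (log2 fold change 1.30 ± 0.12 SE, adjusted p = 1.8e-07). Mmp12, the macrophage elastase, and Mmp3, stromelysin, rose by 1.20 and 1.13 on the log2 scale, each with no overlap. Mmp12 overlaps Mmp1b in the annotation, which had a log2 fold change of 2.00.

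Among coagulation and plasminogen genes 7 of 18 were called higher and 2 lower (1 lower without any 1 of the 6 LDL libraries). F10, the gene of factor X, rose from 70.9, 49.2 and 56.6 to 107, 132 and 124 CPM (log2 fold change 1.04 ± 0.20 SE, adjusted p = 9.6e-04). Tet2KO and Jak2VF LDL libraries lay below WT for this gene, at 39.2, 33.2 and 27.9 CPM in Tet2KO and 42, 43.5 and 37 CPM in Jak2VF, and the direct differences of Dnmt3aKO from them were 1.85 ± 0.20 (SE, adjusted p = 1.2e-06) and 1.57 ± 0.20 (SE, adjusted p = 7.8e-06). F5, the gene of factor V, rose by 1.51 ± 0.22 (SE, adjusted p = 5.5e-05), and Procr, the receptor of protein C, by 1.40 ± 0.15 (SE, adjusted p = 1.1e-06).

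Complement genes other than C2 did not move as 1 group. Of 22 tested, 4 were called higher and 7 lower with LDL (4 lower without Dnmt3aKO LDL replicate 1 and 4 without WT LDL replicate 1), against 6 higher and 0 lower with vehicle. In the test of whether the genotype difference differed between LDL and vehicle, 0 of the 22 were called, where 0.432% of all genes were. The higher ones with LDL were C2, C3, which is cleaved at the centre of the cascade (log2 fold change 0.61 ± 0.10 SE, adjusted p = 3.5e-04), C5ar2, a receptor of C5a (log2 fold change 1.17 ± 0.13 SE, adjusted p = 1.8e-06), and Itgax, a subunit of complement receptor 4 (log2 fold change 1.15 ± 0.16 SE, adjusted p = 3.7e-05). C1qa, a chain of the recognition molecule C1q, was lower, at 885, 511 and 589 CPM in WT and 320, 359 and 323 CPM in Dnmt3aKO (log2 fold change -0.99 ± 0.20 SE, adjusted p = 0.00138), with vehicle values of 925, 741 and 661 CPM in WT and 733, 715 and 692 CPM in Dnmt3aKO (log2 fold change -0.12 ± 0.19 SE, adjusted p = 0.843). C1qb and C1qc, the other chains, fell by 0.86 and 0.96. For C1qb the call was lost without Dnmt3aKO LDL replicate 1 or 3 (adjusted p = 0.0579 and 0.0688) or WT LDL replicate 1 (log2 fold change -0.50, adjusted p = 0.169), the library with the highest level of all 3 chains. Under the length offset 7 complement genes were still called lower.

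Most genes of lipid uptake and storage that changed were higher. Of 25 tested 10 were called higher and 1 lower, and with vehicle 11 and 0. Cd36, a scavenger receptor for oxidised lipoprotein, stood at 430, 541 and 518 CPM in WT and 1395, 1441 and 1515 CPM in Dnmt3aKO (log2 fold change 1.55 ± 0.10 SE, adjusted p = 4.7e-10), and with vehicle at 270, 291 and 299 CPM in WT and 641, 571 and 607 CPM in Dnmt3aKO (log2 fold change 1.08 ± 0.10 SE, adjusted p = 9.6e-08). All Dnmt3aKO libraries lay above all WT libraries under both treatments. Msr1, scavenger receptor A, was at 352, 394 and 324 CPM in WT and 580, 585 and 672 CPM in Dnmt3aKO with LDL (log2 fold change 0.78 ± 0.12 SE, adjusted p = 9.5e-05) and did not pass with vehicle (log2 fold change 0.03 ± 0.12 SE, adjusted p = 0.939). Lpl, lipoprotein lipase, rose from 144, 119 and 101 to 208, 249 and 238 CPM (log2 fold change 0.93 ± 0.17 SE, adjusted p = 5.7e-04). Dgat2, which makes triglyceride, rose by 0.96 ± 0.15 (SE, adjusted p = 1.6e-04). The lone lower call, Lipe, was lost without any 1 of 5 libraries (all but WT LDL replicate 2), with an adjusted p of 0.256 without WT LDL replicate 1.

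Cells rich in sterol repress genes of cholesterol synthesis. Of 25 such genes 4 were called higher and 1 lower with LDL, with a median of -0.06. Over all genes tested 8.01% were called higher and 9.46% lower. With vehicle 0 of the 25 were called higher and 10 lower, where 5.58% and 5.51% of all genes were. The number called higher with LDL fell to 1 without Dnmt3aKO LDL replicate 1 or WT LDL replicate 1, and to 2 without Dnmt3aKO LDL replicate 2 or 3. The lone lower call was lost without Dnmt3aKO LDL replicate 2 or 3 or WT LDL replicate 1, whereas 5 were called higher and 3 lower without WT LDL replicate 2, and 2 and 3 with library totals. Among 16 targets of LXR, the sterol-sensing receptor, 2 were called higher and 2 lower (0 lower without Dnmt3aKO LDL replicate 1 or 3 or WT LDL replicate 1 or 3, 1 without Dnmt3aKO LDL replicate 2). Abca1, the cholesterol exporter, was at 566, 952 and 650 CPM in WT and 1280, 1165 and 1225 CPM in Dnmt3aKO (log2 fold change 0.76 ± 0.18 SE, adjusted p = 0.00667). Apoc1, a small apolipoprotein, was at 0.585, 0.386 and 0.361 CPM in WT and 2.97, 4.22 and 3.63 CPM in Dnmt3aKO (log2 fold change 3.01 ± 0.36 SE, adjusted p = 5.3e-06). Apoe, next to Apoc1 on chromosome 7, had a log2 fold change of -0.73 ± 0.22 (SE, adjusted p = 0.0294), a call lost without Dnmt3aKO LDL replicate 1 or 3 or WT LDL replicate 1 or 3 (adjusted p = 0.0897, 0.121, 0.205 and 0.0519).

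Antioxidant genes driven by NRF2 were higher. Of 18 tested 12 were called higher and 1 lower, with a median of 0.60, and with vehicle 6 and 0. Slc7a11, the cystine importer, stood at 117, 129 and 75.5 CPM in WT and 471, 444 and 501 CPM in Dnmt3aKO (log2 fold change 2.14 ± 0.20 SE, adjusted p = 1.7e-07). Gclm, a subunit of the enzyme that starts glutathione synthesis, rose from 121, 111 and 115 to 243, 273 and 273 CPM (log2 fold change 1.19 ± 0.09 SE, adjusted p = 1.1e-08). Cat, catalase, rose from 226, 233 and 241 to 396, 424 and 409 CPM (log2 fold change 0.81 ± 0.06 SE, adjusted p = 7.3e-09). The genotypes did not overlap for any of them. Txnrd1, thioredoxin reductase, rose by 0.81 ± 0.08 (SE, adjusted p = 7.3e-07) with LDL and did not pass with vehicle (log2 fold change 0.22 ± 0.08 SE, adjusted p = 0.0943). Hmox1, heme oxygenase, picked after its values were seen, was at 1183, 867 and 1064 CPM in WT and 1862, 2233 and 2238 CPM in Dnmt3aKO, a difference of 1.02 that was as large with vehicle (1.01). The lone lower call, Keap1, was lost without any 1 of 5 libraries (all but WT LDL replicate 2). Its adjusted p was 0.261 without WT LDL replicate 1 and 0.0547 under the length offset.

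In the hypoxia and glycolysis list 7 of 22 genes were called higher and 0 lower under each treatment (2 lower with LDL without WT LDL replicate 2). The glycolytic enzymes Gapdh, Ldha and Pkm had log2 fold changes of -0.22, -0.17 and -0.12, none of which passed. Vegfa, an angiogenic factor, rose from 323, 341 and 339 to 546, 555 and 568 CPM (log2 fold change 0.74 ± 0.10 SE, adjusted p = 2.5e-05). Pfkfb3, an activator of glycolysis, rose from 132, 175 and 182 to 266, 275 and 269 CPM (log2 fold change 0.73 ± 0.13 SE, adjusted p = 6.6e-04). Of 18 genes of prostaglandin and leukotriene synthesis 6 were called higher and 2 lower. Ptges, the inducible prostaglandin E synthase, was at 60.4, 52.3 and 67.3 CPM in WT and 173, 165 and 174 CPM in Dnmt3aKO (log2 fold change 1.51 ± 0.10 SE, adjusted p = 9.8e-10). The difference was larger than with vehicle (interaction 0.86 ± 0.14 SE, adjusted p = 0.00332). Ptgs2, cyclooxygenase 2, picked after its values were seen, stood at 298, 394 and 250 CPM in WT and 647, 606 and 636 CPM in Dnmt3aKO (log2 fold change 1.00 ± 0.17 SE, adjusted p = 4.0e-04). Hpgd, which degrades prostaglandins, fell by 0.80 (adjusted p = 9.7e-06).

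Cell cycle genes were lower. Of 26 tested 20 were called lower and 0 higher with LDL, with a median of -0.52, and 24 and 0 with vehicle. Mcm6, a subunit of the replicative helicase, fell from 115, 111 and 115 to 76.6, 71 and 77.5 CPM (log2 fold change -0.60 ± 0.08 SE, adjusted p = 3.7e-05). Cdc20, an activator of mitotic exit, fell from 47.2, 37.9 and 42.2 to 25.4, 18.4 and 16.9 CPM (log2 fold change -1.07 ± 0.17 SE, adjusted p = 1.4e-04). Plk1, a mitotic kinase, fell from 25.6, 26.9 and 32.9 to 18.4, 15.8 and 13.9 CPM (log2 fold change -0.83 ± 0.13 SE, adjusted p = 1.5e-04). All 3 had groups that did not overlap. Mki67, a proliferation marker, was at 111, 151 and 62.6 CPM in WT and 134, 84.6 and 109 CPM in Dnmt3aKO and did not pass (log2 fold change 0.02 ± 0.29 SE, adjusted p = 0.976). Top2a, a topoisomerase of dividing cells, did not pass either (log2 fold change -0.08 ± 0.16 SE, adjusted p = 0.738). Leaving out single libraries left 16 to 19 called lower, and the length offset 17.

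Genes of antigen presentation were lower with LDL. Of 21 tested 12 were called lower and 1 higher, with a median of -0.61, against 3 and 2 with vehicle. For 0 of the 21 was a difference between the genotype effects with LDL and with vehicle called, where 0.432% of all genes were. Ctss, cathepsin S, which cuts the invariant chain, stood at 3094, 1990 and 2183 CPM in WT and 1014, 1238 and 1152 CPM in Dnmt3aKO (log2 fold change -1.09 ± 0.15 SE, adjusted p = 2.9e-05). H2-DMa, a peptide-loading chaperone, stood at 53.3, 28.1 and 33.5 CPM in WT and 12.8, 14.1 and 12.8 CPM in Dnmt3aKO (log2 fold change -1.53 ± 0.22 SE, adjusted p = 3.8e-05). Both groups of 3 were apart for these genes, with WT LDL replicate 1 the highest library. The count rested on single libraries, with 3 called lower and a median of -0.22 without WT LDL replicate 1, and 5, 7 and 4 without Dnmt3aKO LDL replicates 1, 2 and 3, and 11 under the length offset. Cd74, the invariant chain itself, picked after its values were seen, was at 60.6, 22.6 and 25.4 CPM in WT and 16.8, 21.1 and 17.2 CPM in Dnmt3aKO. Its log2 fold change of -0.98 ± 0.30 (SE, adjusted p = 0.0325) became -0.37 (adjusted p = 0.39) without WT LDL replicate 1 and lost the call without each Dnmt3aKO LDL replicate (adjusted p = 0.0997, 0.0564 and 0.114). Ciita, which switches on class II genes, fell with a log2 fold change of -1.02 ± 0.27 (SE, adjusted p = 0.0136), a call lost without Dnmt3aKO LDL replicate 1 or 3 (adjusted p = 0.0538 and 0.0813). The lone higher call, H2-Eb2, was lost without Dnmt3aKO LDL replicate 3.

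Type I interferon response genes were high in 1 of the 6 libraries. Of 29 tested 4 were called lower and 0 higher, with a median of -0.45 that became 0.26 without WT LDL replicate 1 and -0.17 in a fit of the 6 LDL libraries with a replicate block. Their summed level was 1934 CPM in WT LDL replicate 1, 657 and 706 CPM in the other WT LDL libraries, and 638 to 884 CPM in the Dnmt3aKO LDL libraries. WT LDL replicate 1 was thus high, and the remaining WT libraries lay inside the range of Dnmt3aKO or next to it. The count of lower members was 0 without WT LDL replicate 1, 1 without Dnmt3aKO LDL replicate 1 or 3, 10 without WT LDL replicate 2 and 7 without WT LDL replicate 3. With vehicle the sums were 903 to 1224 CPM in WT and 730 to 781 CPM in Dnmt3aKO, and 5 members were called lower. Ifi27l2a, an interferon-inducible gene among the largest falls, was at 68.4, 10.9 and 13.1 CPM in WT and 4.18, 6.66 and 4.36 CPM in Dnmt3aKO (log2 fold change -2.60 ± 0.50 SE, adjusted p = 0.00112).

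Macrophage identity was first checked on its markers. Csf1r, the receptor of M-CSF, stood at 2245, 2096 and 2338 CPM in WT and 2332, 2328 and 2132 CPM in Dnmt3aKO (log2 fold change 0.02 ± 0.07 SE, adjusted p = 0.829). Lyz2, lysozyme, stood at 26010, 19024 and 22076 CPM in WT and 21845, 24193 and 22373 CPM in Dnmt3aKO, so both groups carried defining markers of the labelled cell type. Of 20 identity markers 3 were called higher and 4 lower (2 lower without Dnmt3aKO LDL replicate 2 or 3 or WT LDL replicate 1). Among all genes tested 8.01% were called higher and 9.46% lower. Cybb, a subunit of the phagocyte oxidase, rose from 145, 162 and 137 to 399, 427 and 372 CPM (log2 fold change 1.43 ± 0.12 SE, adjusted p = 7.1e-08). Aif1, an actin-binding protein, fell from 52.9, 24.1 and 26.7 to 15.5, 15.6 and 13.5 CPM (log2 fold change -1.22 ± 0.26 SE, adjusted p = 0.00246). Of 21 markers of resident macrophages and clearance of dying cells 10 were called lower and 3 higher, against 2 and 5 with vehicle. The test of the LDL difference against the vehicle difference called 0 of these 21 and 0.432% of all genes. Maf, a transcription factor of resident macrophages, fell by 0.39 (adjusted p = 0.00134), and Gas6, a bridge to dying cells, by 0.52 (adjusted p = 0.00171). Slc40a1, the iron exporter, rose from 62.2, 49.4 and 50.5 to 84.6, 115 and 112 CPM (log2 fold change 0.95 ± 0.14 SE, adjusted p = 6.5e-05). Without Dnmt3aKO LDL replicate 3 there were 6 lower members, and without Dnmt3aKO LDL replicate 1 or 2 or WT LDL replicate 3 there was 1 higher.

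Most imprinted genes that changed were lower. These are expressed from 1 parental allele under the control of inherited methylation. Of 25 tested 9 were called lower and 1 higher with LDL, and 8 and 0 with vehicle. H19, a long noncoding RNA, stood at 76.5, 66.5 and 80.3 CPM in WT and 10.7, 17.7 and 17.2 CPM in Dnmt3aKO (log2 fold change -2.28 ± 0.18 SE, adjusted p = 1.4e-08), with 277, 270 and 239 CPM in WT and 115, 121 and 104 CPM in Dnmt3aKO under vehicle (log2 fold change -1.21 ± 0.17 SE, adjusted p = 3.1e-05). Igf2, its neighbour on chromosome 7 with expression from the other allele, fell as well, from 6.74, 7.3 and 6.59 to 1.8, 2.79 and 2.6 CPM (log2 fold change -1.50 ± 0.17 SE, adjusted p = 3.4e-06). At the Dlk1 cluster on chromosome 12, the noncoding RNA Rian fell from 26.4, 36.2 and 36 to 12, 13.5 and 15.5 CPM (log2 fold change -1.26 ± 0.17 SE, adjusted p = 1.8e-05). Meg3, picked after its values were seen, fell from 12.9, 20.2 and 17.6 to 6.31, 7.77 and 9.75 CPM (log2 fold change -1.08 ± 0.26 SE, adjusted p = 0.00627). The protein-coding gene Dlk1 held 0.529, 0.413 and 1.02 CPM in WT and 0.125, 0.145 and 0.196 CPM in Dnmt3aKO (log2 fold change -2.00 ± 0.40 SE, adjusted p = 0.00163). Genes expressed from opposite parental alleles thus fell in the same libraries. Of 8 germline genes tested, 1 was called higher, Xlr3a (log2 fold change 1.56 ± 0.22 SE, adjusted p = 4.9e-05), and 14 further members were not tested. The lone higher imprinted call, Impact, was lost without Dnmt3aKO LDL replicate 3 or WT LDL replicate 1 or 3 (adjusted p = 0.0796, 0.0976 and 0.0939).

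The TGF-beta family held the largest rise named of the comparison. Gdf3 (ENSMUSG00000030117, chromosome 6, 122605403 to 122610087 on GRCm38), a ligand of the family known from embryonic and fat tissue, was at 0.947, 0.909 and 0.721 CPM in WT and 16.2, 17.9 and 15.6 CPM in Dnmt3aKO with LDL, groups far apart, with a log2 fold change of 4.26 ± 0.17 (SE, adjusted p = 4.8e-13). With vehicle it was 4.33 ± 0.16 (SE, adjusted p = 4.6e-13). Tet2KO LDL libraries also held more than WT, at 12.1, 9.52 and 10.9 CPM (log2 fold change 3.65 ± 0.17 SE, adjusted p = 7.6e-12 against WT), whereas Jak2VF held 0.0819, 0.189 and 0.275 CPM. Bmp4 (ENSMUSG00000021835, chromosome 14, 46383520 to 46390669 on GRCm38), a bone morphogenetic protein, went the other way, from 7.74, 6.01 and 7.57 to 1.17, 1.51 and 1.17 CPM (log2 fold change -2.45 ± 0.20 SE, adjusted p = 3.3e-08). Tgfb3 fell by 0.58 (adjusted p = 1.5e-04). Of the 26 members 5 were called higher and 4 lower, where 8.01% and 9.46% of all genes tested were. The higher count was 2 without any 1 Dnmt3aKO LDL replicate and 3 without WT LDL replicate 1 or 3.

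Of 20 AP-1 and early growth response factors 3 were called higher, such as Fos (log2 fold change 0.42 ± 0.08 SE, adjusted p = 0.00154), and 2 lower. Among all genes tested 8.01% were called higher and 9.46% lower. The AP-1 list had 1 higher without Dnmt3aKO LDL replicate 3 or WT LDL replicate 1, 0 lower without Dnmt3aKO LDL replicate 3, and 1 lower without WT LDL replicate 1 or 3. Of 20 ATF4 targets 5 were called lower and 0 higher, with 1 to 3 lower without any 1 library other than WT LDL replicate 2 and 2 lower under the length offset. Phgdh, which starts serine synthesis, was lower, at 78.7, 52.1 and 63.5 CPM in WT and 40.5, 33.3 and 30.8 CPM in Dnmt3aKO (log2 fold change -0.90 ± 0.21 SE, adjusted p = 0.00468). Of 19 STAT5 and cytokine feedback targets 6 were called higher and 4 lower, with 0 lower without Dnmt3aKO LDL replicate 2 or WT LDL replicate 1 and 1 without Dnmt3aKO LDL replicate 3 or WT LDL replicate 3. Osm, the cytokine oncostatin M, rose from 7.13, 5.57 and 6.36 to 11.9, 10.9 and 12.3 CPM (log2 fold change 0.88 ± 0.10 SE, adjusted p = 3.7e-06). Of 18 alternative activation genes 6 were called higher and 3 lower (1 lower without Dnmt3aKO LDL replicate 2 or 3), and Clec7a, the glucan receptor dectin 1, stood at 22.4, 20.8 and 19.6 CPM in WT and 35.6, 43.8 and 43.8 CPM in Dnmt3aKO (log2 fold change 0.97 ± 0.13 SE, adjusted p = 2.9e-05).

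Several of the largest changes belonged to no list. Among the rises were Lhfpl4, a membrane protein of inhibitory synapses (log2 fold change 3.19 ± 0.34 SE, adjusted p = 1.4e-06), and Mcoln3. The latter, a lysosomal cation channel, was at 1.36, 2.51 and 2.13 CPM in WT and 14.3, 16.1 and 14.3 CPM in Dnmt3aKO (log2 fold change 2.90 ± 0.22 SE, adjusted p = 7.3e-09). The stefin genes Stfa2 and Stfa3, cysteine protease inhibitors of myeloid cells whose near-identical copies make the counts uncertain, rose by 2.53 and 2.90. Jak2VF LDL libraries held 1.31, 2 and 1.68 CPM of Stfa2, inside the Dnmt3aKO range of 1.25 to 2.12 CPM. Among the falls, Eps8l1, a regulator of actin, was at 7.21, 6.37 and 5.54 CPM in WT and 0.418, 0.524 and 0.503 CPM in Dnmt3aKO (log2 fold change -3.70 ± 0.16 SE, adjusted p = 9.3e-13). Gjb2, the gap junction protein connexin 26, fell from 4.09, 5.35 and 5.64 to 0.753, 0.611 and 0.754 CPM (log2 fold change -2.83 ± 0.17 SE, adjusted p = 4.3e-10). Fgf10, a fibroblast growth factor, fell from 13.1, 18.3 and 13.3 to 2.84, 2.62 and 2.65 CPM (log2 fold change -2.46 ± 0.15 SE, adjusted p = 4.8e-10). The gut peptide Cck was lower with LDL, 14, 7.52 and 8.2 against 1.84, 1.48 and 1.34 CPM (log2 fold change -2.69 ± 0.45 SE, adjusted p = 2.7e-04), and did not pass with vehicle (log2 fold change -1.01 ± 0.45 SE, adjusted p = 0.191). Aqp5, Gzmd and Ptn, genes of a water channel, a granzyme and a heparin-binding growth factor, fell by 2.57, 2.43 and 2.41 on the log2 scale, each with no overlap. Sprr1a, a keratinocyte gene at 2.39, 0.909 and 1.08 CPM in WT, lost its call of -2.52 ± 0.65 (SE, adjusted p = 0.0108) without Dnmt3aKO LDL replicate 2 or 3 or WT LDL replicate 1 (adjusted p = 0.0606, 0.0718 and 0.0818).

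Markers of other blood cells also moved with the genotype. In bulk RNA, fewer cells of a type and less RNA per cell cannot be told apart. Neutrophil and granule genes were higher, with 16 of 19 called higher and 0 lower with LDL, a median of 1.32, and 18 and 0 with vehicle. Their summed level was 399 to 476 CPM in WT and 1042 to 1114 CPM in Dnmt3aKO with LDL, and 278 to 348 against 892 to 956 CPM with vehicle. Retnlg, a resistin-like protein, was at 3.67, 1.71 and 2.82 CPM in WT and 11, 15 and 12.4 CPM in Dnmt3aKO (log2 fold change 2.23 ± 0.23 SE, adjusted p = 9.3e-07). S100a8, a calcium-binding alarmin picked after its values were seen, was at 79.3, 44.7 and 55.6 CPM in WT and 182, 191 and 172 CPM in Dnmt3aKO (log2 fold change 1.60 ± 0.21 SE, adjusted p = 1.3e-05). Ly6g, the surface marker that defines mouse neutrophils, was at or under 0.224 CPM in all 6 LDL libraries. Monocyte markers were higher as well, with 10 of 14 called higher and 1 lower (2 lower without WT LDL replicate 2), and summed levels of 2960 to 4287 CPM in WT and 7192 to 7628 CPM in Dnmt3aKO. Most of that sum was Fn1, fibronectin, at 1629, 2632 and 2838 CPM in WT and 4986, 4427 and 4766 CPM in Dnmt3aKO (log2 fold change 1.00 ± 0.21 SE, adjusted p = 0.00254). Ly6c2, which marks inflammatory monocytes, rose from 10.7, 6.2 and 7.11 to 26.4, 36.6 and 30.3 CPM (log2 fold change 1.96 ± 0.19 SE, adjusted p = 3.1e-07). Clec4e, a receptor of damaged cells and mycobacteria, rose by 1.75.

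B cell markers were higher at low levels, with 7 of 9 called higher and 0 lower and sums of 51.2 to 68.3 CPM in WT and 104 to 135 CPM in Dnmt3aKO. Pax5, the B cell transcription factor, was at 0.863, 1.02 and 0.721 CPM in WT and 1.97, 3.23 and 2.43 CPM in Dnmt3aKO (log2 fold change 1.55 ± 0.23 SE, adjusted p = 8.3e-05). Pou2af1 and the antibody segments Ighv11-2 and Igkv14-126, among the largest rises of the comparison with log2 fold changes of 2.62, 2.78 and 2.51, are B cell genes too, and segments of 1 antibody locus share sequence. T and NK cell markers summed to 100 to 120 CPM in WT and 126 to 144 CPM in Dnmt3aKO, with 2 of 17 called higher and 7 lower. Il7r, which macrophages can express, made up most of that sum, and Ncr1 and Gzmb, which mark NK cells, fell by 1.95 and 1.92. Megakaryocyte and platelet markers summed to 1430 to 2139 CPM in WT and 782 to 832 CPM in Dnmt3aKO, most of it Pf4, which fell from 1882, 1173 and 1579 to 670, 718 and 698 CPM (log2 fold change -1.15 ± 0.19 SE, adjusted p = 2.9e-04). Stromal markers summed to 13331 to 15580 CPM in WT and 11075 to 12157 CPM in Dnmt3aKO, and 5 of 15 were called lower and 1 higher (1 lower without Dnmt3aKO LDL replicate 1, 2 without Dnmt3aKO LDL replicate 2, and 3 without Dnmt3aKO LDL replicate 3 or WT LDL replicate 1 or 3). Acta2, smooth muscle actin, fell from 1903, 1418 and 1639 to 982, 1005 and 1001 CPM (log2 fold change -0.73 ± 0.12 SE, adjusted p = 1.6e-04). Of 8 mast cell and basophil markers 1 was called higher and 3 lower (1 lower without Dnmt3aKO LDL replicate 3 or WT LDL replicate 3), and of 14 dendritic cell markers 2 were called higher and 4 lower (0 lower without Dnmt3aKO LDL replicate 3, 1 without WT LDL replicate 1). The shares over all genes tested were 8.01% higher and 9.46% lower. None of 6 erythroid markers was called. Of the Y-linked genes Eif2s3y was higher, at 72.2, 71.4 and 57.4 CPM in WT and 98.5, 106 and 110 CPM in Dnmt3aKO (log2 fold change 0.64 ± 0.10 SE, adjusted p = 1.8e-04), and Xist lay at or under 0.196 CPM in all 6 libraries. The part that other cells had in the differences of the gene groups above was not tested.

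**Figure D5:**
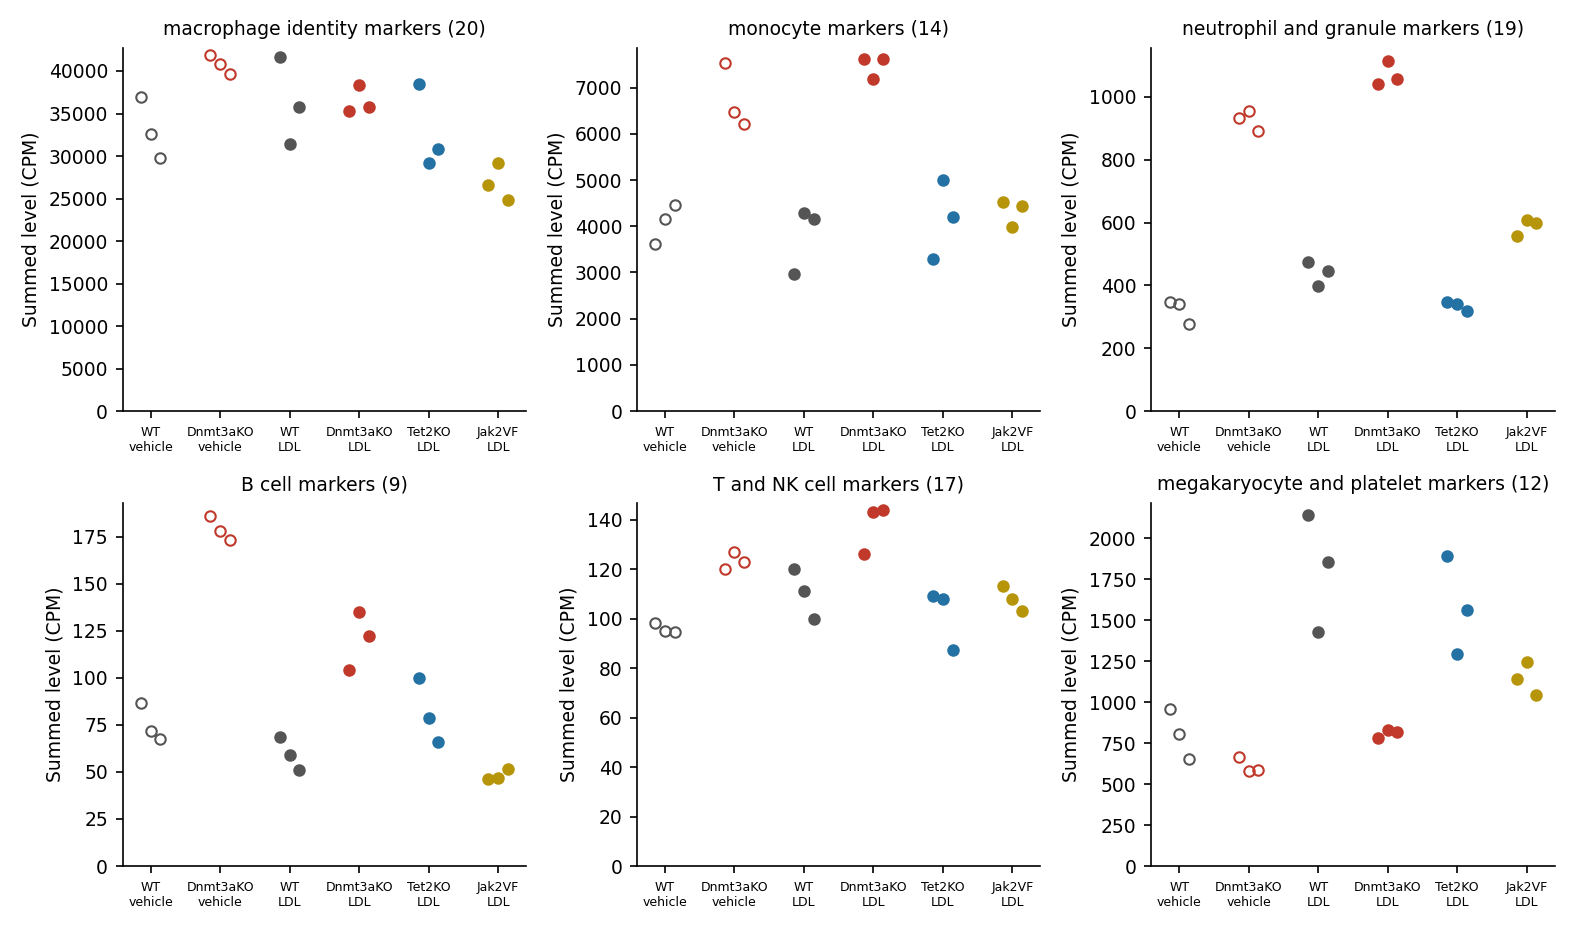
Summed level (CPM) of 6 lists of cell type markers in each library of WT and Dnmt3aKO with vehicle and of WT, Dnmt3aKO, Tet2KO and Jak2VF with LDL. Neutrophil and granule markers sum to 1042 to 1114 CPM in the Dnmt3aKO LDL libraries and to 399 to 476 CPM in the WT LDL libraries, and megakaryocyte and platelet markers to 782 to 832 and 1430 to 2139 CPM.

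Whether the genotype difference itself depended on LDL was asked with an interaction term. It was called for 84 genes (0.432%), with 37 (0.19%) more positive under LDL and 47 (0.242%) more negative, and 2744 genes had an unadjusted p under 0.05. The count moved with the libraries, from 41 without WT ctl replicate 3 to 731 without WT LDL replicate 2. It was 42 without Dnmt3aKO LDL replicate 3, 45 without Dnmt3aKO ctl replicate 2 or 3, 47 without WT ctl replicate 2, 48 without Dnmt3aKO LDL replicate 1, 50 without WT LDL replicate 3 and 132 without WT ctl replicate 1. Among the negative ones were Bmp4 and Spon2, a matrix protein. Bmp4 in Dnmt3aKO was at 6.61, 7.8 and 7.96 CPM with vehicle and 1.17, 1.51 and 1.17 CPM with LDL, whereas WT held 11.9, 9.56 and 11.9 and 7.74, 6.01 and 7.57 CPM, an interaction of -1.88 ± 0.26 (SE, adjusted p = 0.00117). Spon2 behaved in the same way, with 6.59, 7.22 and 6.53 CPM and 1.09, 1.22 and 1.65 CPM in Dnmt3aKO against 12.2, 9.02 and 9.13 and 7.1, 5.04 and 6.66 CPM in WT (interaction -1.65 ± 0.23 SE, adjusted p = 0.00117). Serpinb2 was higher with LDL in both genotypes and more so in Dnmt3aKO (interaction 1.59 ± 0.23 SE, adjusted p = 0.00117), from 7.7, 7.68 and 7.41 CPM with vehicle, where WT held 5.68, 6.56 and 5.27 CPM and the difference of 0.38 ± 0.17 (SE, adjusted p = 0.177) did not pass.

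Met, the receptor of hepatocyte growth factor, Sema3c, a secreted semaphorin, and Jag1, a Notch ligand, shared a pattern. They did not pass between the genotypes with vehicle (log2 fold changes 0.03, 0.18 and -0.16) and were higher in Dnmt3aKO with LDL (1.53, 1.58 and 1.11). Met, for example, held 11.7, 13.3 and 10.7 CPM in WT and 35, 31.9 and 36.7 CPM in Dnmt3aKO with LDL, with an interaction of 1.51 ± 0.23 (SE, adjusted p = 0.00187). Vipr2, a receptor of vasoactive intestinal peptide, was the mirror image, with 0.956, 0.961 and 0.813 CPM in WT and 0.823, 0.842 and 0.706 CPM in Dnmt3aKO under vehicle and 2.84, 3.22 and 4 CPM in WT and 1.05, 0.989 and 1.09 CPM in Dnmt3aKO under LDL (interaction -1.48 ± 0.25 SE, adjusted p = 0.00519). Its overlapping gene Gm20658 had a log2 fold change of -4.69 with LDL.

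For another set the genotype difference passed with vehicle and not with LDL. Angptl4, a lipid-induced inhibitor of lipoprotein lipase, stood at 77.3, 50.1 and 47.3 CPM in WT and 150, 213 and 169 CPM in Dnmt3aKO with vehicle, and at 352, 236 and 285 CPM in WT and 247, 272 and 265 CPM in Dnmt3aKO with LDL. The genotypes were apart with vehicle (log2 fold change 1.61 ± 0.20 SE, adjusted p = 8.4e-06) and overlapped with LDL (log2 fold change -0.16 ± 0.19 SE, adjusted p = 0.591), an interaction of -1.76 ± 0.28 (SE, adjusted p = 0.00324). Cdcp1, a transmembrane glycoprotein, was lower in Dnmt3aKO with vehicle (log2 fold change -2.05 ± 0.23 SE, adjusted p = 2.7e-06), at 0.339, 0.408 and 0.302 against 1.58, 1.7 and 1.1 CPM, and overlapped WT with LDL at 2.47, 2.1 and 2.71 against 3.2, 2.34 and 2.92 CPM. Ch25h, which makes 25-hydroxycholesterol, had the same course (-1.33 with vehicle, 0.25 with LDL), and Hspb7, a small heat shock protein, the opposite sign (1.76 and 0.43). The interaction called for Esam, an adhesion molecule (interaction 1.49 ± 0.29 SE, adjusted p = 0.0198), was lost without Dnmt3aKO LDL replicate 1 or 3, WT LDL replicate 3, Dnmt3aKO ctl replicate 2 or 3 or WT ctl replicate 2, with adjusted p-values of 0.0531, 0.0555, 0.0691, 0.0761, 0.0726 and 0.0804.

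Direct tests against the other mutant genotypes given LDL asked which differences set Dnmt3aKO apart from these. Dnmt3aKO differed from Tet2KO at 2203 genes (11.3%), 980 higher (5.04%) and 1223 lower (6.29%), and from Jak2VF at 3042 genes (15.6%), 1368 higher (7.04%) and 1674 lower (8.61%). Under scaling by library totals alone the share of higher calls fell from 44.5% to 34.5% against Tet2KO and from 45% to 30.2% against Jak2VF. These comparisons use the same Dnmt3aKO LDL libraries as the comparison with WT, so their values are given side by side only. Tnfsf4 differed by 3.47 ± 0.21 (SE, adjusted p = 2.6e-10) from Tet2KO and by 3.85 ± 0.21 (SE, adjusted p = 4.9e-11) from Jak2VF, Il1a by 2.20 and 2.12, C2 by 3.37 and 3.28, and Csf3 by 1.69 and 2.41, with all 8 tests passed. Cd36 was higher in Dnmt3aKO than in Tet2KO (log2 fold change 1.95 ± 0.10 SE, adjusted p = 1.5e-11) and Jak2VF (log2 fold change 1.79 ± 0.10 SE, adjusted p = 4.1e-11), which held 370, 404 and 349 CPM in Tet2KO and 440, 393 and 421 CPM in Jak2VF. Cell cycle genes were called lower for 17 of 26 members against Tet2KO and 23 of 26 against Jak2VF, with 0 higher in both. Inflammatory and NF-kB targets were called higher for 11 of 28 and 14 of 28 and lower for 3 in each. For Ptgs2 neither test passed. Tet2KO held 527, 700 and 566 CPM and Jak2VF 754, 540 and 605 CPM, inside or around the Dnmt3aKO range (log2 fold changes 0.07 and -0.01). Neutrophil and granule markers were called higher for 15 of 19 against Tet2KO and 8 of 19 against Jak2VF. S100a8, for instance, held 34.7, 19.5 and 25.4 CPM in Tet2KO and 96.5, 130 and 110 CPM in Jak2VF. Gdf3 still differed from Tet2KO (log2 fold change 0.61 ± 0.14 SE, adjusted p = 0.00417) and from Jak2VF (log2 fold change 6.48 ± 0.21 SE, adjusted p = 1.8e-14).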

How the data were processed

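RNA of 24 h cultures was sequenced, and the authors deposited counts per gene for 24 libraries in 1 table of 52550 genes, of which 6 libraries form this comparison. The deposited names call the values normalized, but they are whole numbers whose totals differ between libraries, so they were read as counts. Reads were mapped to mm10, per the submitters' processing notes. The counting tool, annotation and use of strand were not given in the sources used here. The labels name both Ribo-Zero and poly-A selection. The filter kept genes that reached 10 counts in 3 or more libraries (19444 genes, 99.93% of counts). All 24 libraries were fitted with 1 mean for each of 8 groups (edgeR 4.0.16, limma 3.58.1, R 4.3.3, TMM factors 0.915 to 1.07, quasi-likelihood test, two-sided, Benjamini-Hochberg over all genes tested, threshold 0.05). The biological coefficient of variation was 0.137 with 16 residual degrees of freedom. The LDL fit was tested on simulated data. Coordinates come from GENCODE M21 (GRCm38).

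Named genes were Dnmt3a, the 4 marker genes, the 12 largest rises and 12 largest falls with a mean of at least 50 scaled counts in 1 group and no overlap between genotypes, 8 and 8 interaction genes by the same rule without the overlap condition, and up to 4 called members of each list with the smallest adjusted p. The other genes named in the text, among them Il6, Nos2, Ptgs2, Hmox1, S100a8, Fn1, Cd74, Rel, Tnfsf14, Meg3 and the list members given as not passing, were chosen after their values were seen. The members of the comparison were taken by their labels, whereas the gene lists were chosen with earlier results of these data known. Counts of genes that overlap another annotated gene, such as Eps8l1, Fgf10, Cdc20, Ccl6, Irak3 and Txnrd1, or that have near-identical copies are uncertain. Alternatives were other scalings, filters and sets of libraries, a replicate block, a length offset, DESeq2 1.42.0, and each library left out in turn.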

Additional observations from a re-analysis of the deposited data

Results flagged for a closer look

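The genotype difference with LDL differed from that with vehicle, by the interaction term of the edgeR quasi-likelihood test, for 84 genes, and the 16 named by rule are given here as the LDL difference minus the vehicle difference on the log2 scale. More positive with LDL were Cdcp1 at 1.83, Serpinb2 at 1.59, Ch25h at 1.58, Met at 1.51, Esam at 1.49, Sema3c at 1.39, Jag1 at 1.27 and Lpl at 1.14. More negative with LDL were Bmp4 at -1.88, Angptl4 at -1.76, Vgf, a secreted neuropeptide precursor, at -1.74, Spon2 at -1.65, Vipr2 at -1.48, Hspb7 at -1.33, Ppbp at -1.32 and Aldh1a1, a retinaldehyde dehydrogenase, at -1.30. The call for Lpl was lost without Dnmt3aKO LDL replicate 2 or 3 (adjusted p = 0.0696 and 0.0864), WT LDL replicate 3 (0.108), Dnmt3aKO ctl replicate 2 or 3 (0.107 and 0.087) or WT ctl replicate 2 or 3 (0.0869 and 0.0859), and under the length offset it had an adjusted p of 0.136. The call for Vgf was lost without Dnmt3aKO LDL replicate 3 (0.0554) or WT ctl replicate 3 (0.0505). The call for Aldh1a1 was lost without any 1 of 10 libraries, with adjusted p-values of 0.0515 to 0.166, and that for Esam without any 1 of 6.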

How the results depend on the processing

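The depth of 24543643 to 39295409 counts per LDL library limits genes of few counts, and 3 libraries a group limit all. For the count of 3397 genes called with LDL, the alternatives gave 3342 to 3933 where all 24 or 12 libraries were fitted without a block. The count was 1287 with only the 6 LDL libraries, and 1838 to 5658 when single LDL libraries were left out. The count of 84 for the interaction was 49 with only 12 libraries, 208 without a filter, 139 with at least 50 counts in 3 libraries, 238 under the length offset, 386 with DESeq2, and 41 to 731 without single libraries. The cause was not tested. Of 219 genes followed with LDL, 69 lost their call in at least 1 alternative, and 50 in at least 1 other than the 6-library fits. For the interaction, 12 of 28 calls were lost in at least 1 alternative. No followed gene reversed direction in the alternatives run, but the balance of calls did. With LDL 1557 higher and 1840 lower became 1680 and 1662 with RLE factors, 1962 and 1750 under the length offset, 1997 and 1936 with DESeq2, 670 and 617 with the 6 LDL libraries, 483 and 351 with these and the block, 1090 and 1060 without Dnmt3aKO LDL replicate 2, and 2842 and 2816 without WT LDL replicate 2. The interaction's 37 and 47 became 472 and 259 without WT LDL replicate 2, 21 and 20 without WT ctl replicate 3, and 197 and 189 with DESeq2.

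Whether the replicate numbers pair the samples could not be decided. Deviations from the group mean of same-numbered Dnmt3aKO and WT LDL libraries had correlations of -0.253, -0.62 and -0.116. Those of different numbers ran from -0.183 to 0.563. With 3 libraries a group these deviations are not independent, and LDL libraries were not set against vehicle libraries in this way. The numbers are those of the labels, and the deposited column of WT LDL replicate 3 is numbered 4. With the replicate block 834 genes were called over the 6 LDL libraries and 3740 over all 24, the interaction had 133, and the counts were 2312 with vehicle, 2413 against Tet2KO and 3289 against Jak2VF.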
